A study of Rattus norvegicus with 4 samples.

Results

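The genes described here are 10 regulators of the step from G1 to S phase of the cell cycle: the D-type cyclin genes Ccnd1, Ccnd2 and Ccnd3, the kinase genes Cdk4 and Cdk6, the CDK inhibitor genes Cdkn1a, Cdkn1b and Cdkn2c, and the retinoblastoma family genes Rb1 and Rbl1. They were taken by name from the 15172 genes listed in the deposited table, and all 10 were found. RNA sequencing had been performed on INS-1 832/13 cells, a clonal rat insulinoma line that secretes insulin, 36 h after transfection with a pool of siRNAs against Tbk1 (siTbk1, 2 samples) or a non-targeting siRNA (siScramble, 2 samples). The comparison asks whether the G1/S genes of these β-cells change when TBK1, a non-canonical IκB kinase, is depleted. The labels give neither genotype differences nor separate cultures, so that p-values measure the spread between these samples only, and a single transformed line stands for the β-cell.

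D-type cyclins bind CDK4 or CDK6 and so carry signals from growth factors and nutrients to the cell cycle. The kinase complexes phosphorylate the retinoblastoma protein RB1 and its relative p107 (encoded by Rbl1), which otherwise hold E2F transcription factors in check. INK4 inhibitors such as p18 (Cdkn2c) bind the kinases directly, whereas the CIP/KIP inhibitors p21 (Cdkn1a) and p27 (Cdkn1b) bind cyclin-kinase complexes. In rodents, cyclin D2 and CDK4 are known to be needed for normal postnatal growth of the β-cell mass.

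Levels are given as CPM, which are estimated counts scaled to 1000000 counts per library with TMM factors. Total counts lay between 38428926 and 47759013 per library, at which 3 counts correspond to 0.0628 to 0.0781 CPM. Tbk1 stood at 53.7 and 52.5 CPM in siScramble replicates 2 and 3 and at 11.8 and 13.3 CPM in siTbk1 replicates 2 and 3, a log2 fold change of −2.08 (standard error 0.076, adjusted p = 3.7e-08 in edgeR's quasi-likelihood test, where every p-value was adjusted over all genes by the Benjamini-Hochberg method). All 13 β-cell marker genes examined were detected. Their summed level was lower with siTbk1, at 10749 to 12040 CPM against 15014 to 15683 CPM, and most of this sum and of its drop was the insulin gene Ins1, with a mean of 10738 CPM in the siScramble and 6882 CPM in the siTbk1 libraries. Of the 13 markers, 4 (30.8%) rose and 7 (53.8%) fell, against 24.4% and 24.8% of all genes tested. Without siScramble replicate 3 or without siTbk1 replicate 2, 2 of the markers rose. Among 17 markers of other pancreatic, stromal and immune cells, 3 were analysed here. Their summed level, nearly all of it glucagon mRNA (Gcg), was 1314 to 1390 CPM in the siScramble and 816 to 878 CPM in the siTbk1 libraries, and Gcg fell. Both shifts go together with the treatment, and their part in the results given next was not tested. In bulk RNA, fewer cells of a kind and less RNA per cell cannot be told apart.

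With siTbk1, 4 of the 10 genes were higher and none was lower at an adjusted p-value under 0.05 (edgeR's quasi-likelihood test). Rb1, Rbl1, Cdk6 and Cdkn1a rose, while the D cyclins, Cdk4, Cdkn1b and Cdkn2c did not pass the test. Among all 13953 genes tested, 24.4% were higher and 24.8% lower by the same rule, so that almost every second gene of the table passed it. Adding the study's limit of a 1.5-fold change left Rb1, Rbl1 and Cdk6, which makes 3 of 10, against 4.81% of all genes called higher and 6.18% called lower with this limit. The count of lower genes was 0 also at an unadjusted p-value under 0.05 in edgeR and at an adjusted p-value under 0.05 in DESeq2 and limma-voom. The median log2 fold change of the 10 genes was 0.22, with 8 above 0, compared with a median of 0.0071 over all tested genes. The siTbk1 libraries lay above both siScramble libraries for 6 of the 10 genes, against 38.7% of all genes, and below both for none, against 37.9%. With siTbk1 replicate 3 left out, Rbl1 came to a log2 fold change of 0.58, just under the 1.5-fold line. With library size alone in place of TMM factors, Rbl1 was at 0.57, also under this line, and 2 of the 10 genes remained past both limits. DESeq2 left 2 genes as well, since Cdk6 did not pass there.

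**Figure D1:**
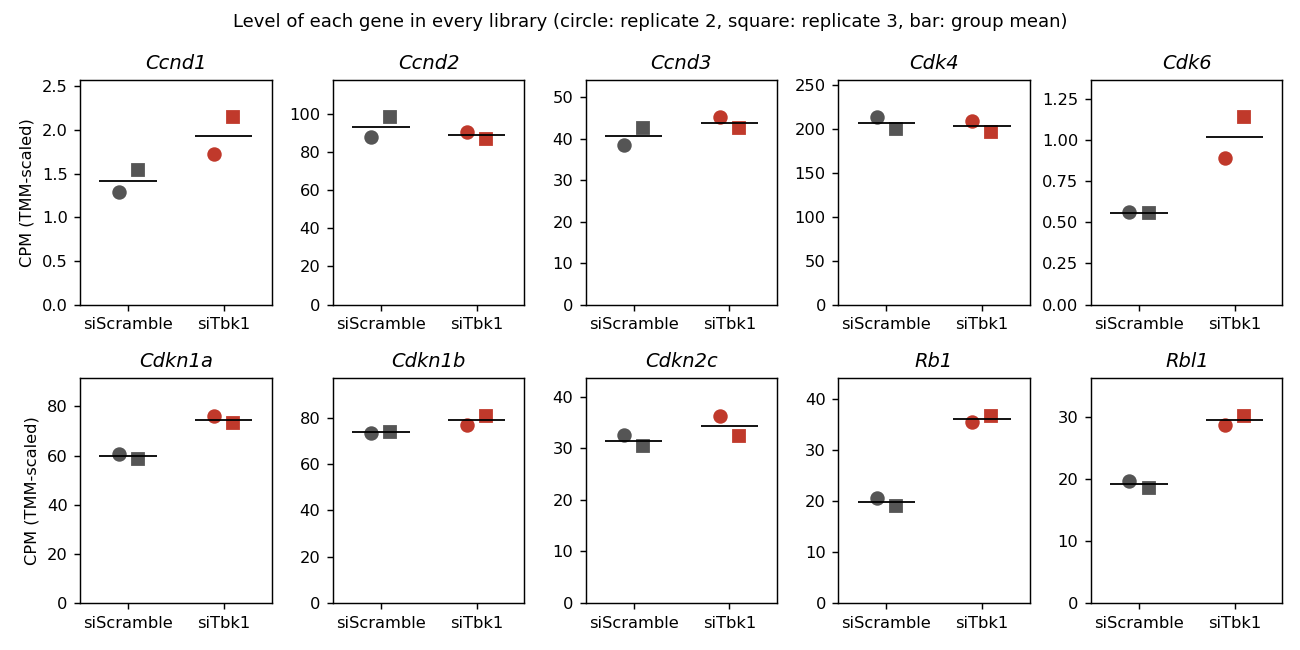
Level of each of the 10 genes in CPM (TMM-scaled, axes from 0) in the 2 siScramble libraries (grey) and the 2 siTbk1 libraries (red), with circles for replicate 2, squares for replicate 3 and bars for the group means. Rb1 goes from 20.5 and 18.9 to 35.4 and 36.7 CPM, while the points of Cdk4 and Ccnd2 overlap between the groups.

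Of the D cyclins, which give CDK4 and CDK6 their activity, none passed the test. Ccnd2 (chromosome 4 from 159674885 to 159697208 on rn6, minus strand) stood at 87.9 and 98.2 CPM in the siScramble and 90.6 and 87.0 CPM in the siTbk1 libraries, so that the siTbk1 libraries lie just above and just below the lower control. On the log2 scale it changed by −0.07, with a 95% interval from −0.21 to 0.07 (adjusted p = 0.42, edgeR's quasi-likelihood test). Ccnd3 (chromosome 9 from 15404822 to 15410944, minus strand) had 38.4 and 42.7 CPM without and 45.2 and 42.6 CPM with siTbk1. The groups overlap by a narrow margin, as replicate 3 was nearly level in both treatments. Its log2 fold change was 0.12 with a 95% interval from −0.04 to 0.27 (adjusted p = 0.19, edgeR's quasi-likelihood test), so that a rise or fall of Ccnd3 of 1.5-fold lies outside the interval, as it does for Ccnd2.

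Ccnd1 (chromosome 1 from 218090750 to 218100326, minus strand) was measured at low depth. It had 62 and 61 counts in the siScramble libraries and 81 counts in each siTbk1 library, where counting error alone gives exact 95% Poisson intervals from 46.7 to 79.5 for the former and from 64.3 to 100.7 for the latter. Scaled to library size, these were 1.29 and 1.54 CPM against 1.72 and 2.15 CPM, and the siTbk1 libraries were the higher ones in both numbers. The log2 fold change of 0.45 had a standard error of 0.22 and a 95% interval from −0.03 to 0.92 (adjusted p = 0.11, edgeR's quasi-likelihood test). At this depth a change of Ccnd1 by 1.5-fold was neither shown nor outside the interval.

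Of the kinases that partner with the D cyclins, Cdk4 was level and Cdk6 was higher with siTbk1 at very few counts. Cdk4 (chromosome 7 from 70349863 to 70352419, plus strand) stood at 213.6 and 200.2 CPM in the siScramble and 209.7 and 197.0 CPM in the siTbk1 libraries. In both groups replicate 2 exceeded replicate 3 by more than the treatments differed, and the log2 fold change was −0.02 with a 95% interval from −0.15 to 0.10 (adjusted p = 0.75, edgeR's quasi-likelihood test). Cdk6 (chromosome 4 from 27785647 to 27966399, minus strand) had 27 and 22 counts in the siScramble and 42 and 43 counts in the siTbk1 libraries. That corresponds to 0.562 and 0.555 CPM against 0.893 and 1.14 CPM, without overlap between the groups. The log2 fold change of Cdk6 was 0.85 (standard error 0.29, 95% interval 0.21 to 1.49, adjusted p = 0.031 in edgeR's quasi-likelihood test). The call rested on few reads. The adjusted p-value was 0.17 in DESeq2, and in edgeR it was 0.099 without siScramble replicate 2, 0.10 without siScramble replicate 3 and 0.20 without siTbk1 replicate 3.

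Cdkn1a was the CDK inhibitor gene that rose. It encodes p21, which restrains CDK2 complexes and also helps to assemble cyclin D with its kinases. Cdkn1a (chromosome 20 from 6351458 to 6358865, plus strand) went from 60.8 and 58.7 CPM in the siScramble to 76.3 and 73.1 CPM in the siTbk1 libraries. The gap between the groups was wider than the spread within either, and the log2 fold change was 0.32 (standard error 0.059, 95% interval 0.19 to 0.45, adjusted p = 0.00074 in edgeR's quasi-likelihood test), a 1.25-fold rise. Its count in siScramble replicate 2 was 2918.99, since the deposited counts are estimates.

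The other inhibitors moved less. Cdkn1b, the gene of p27 (chromosome 4 from 168689163 to 168693965, plus strand), had 73.4 and 73.7 CPM without and 76.7 and 80.8 CPM with siTbk1. Both siTbk1 libraries were the higher ones by a small margin, and the log2 fold change was 0.10 (95% interval −0.03 to 0.22, adjusted p = 0.18, edgeR's quasi-likelihood test). Cdkn2c, which encodes the INK4 inhibitor p18 (chromosome 5 from 129347732 to 129352887, minus strand), had 32.6 and 30.3 CPM in the siScramble and 36.3 and 32.3 CPM in the siTbk1 libraries. Here the lower siTbk1 library fell between the controls, and the log2 fold change was 0.13 (95% interval −0.04 to 0.29, adjusted p = 0.18, edgeR's quasi-likelihood test).

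Rb1 showed the largest log2 fold change of the 10 genes in the fit of all 4 libraries. It encodes the retinoblastoma protein, the principal brake on E2F factors, and lies on chromosome 15 from 55083140 to 55209343 on the minus strand. Rb1 went from 20.5 and 18.9 CPM (mean 19.7 ± 1.13, SD, n = 2) in the siScramble to 35.4 and 36.7 CPM (36.1 ± 0.891, SD, n = 2) in the siTbk1 libraries. Both siTbk1 libraries lay far above both controls. The log2 fold change was 0.87 (standard error 0.072, 95% interval 0.71 to 1.03, adjusted p = 4.3e-06 in edgeR's quasi-likelihood test), a 1.83-fold rise that ranked 354th from the top of 13953 genes. Set against a change of 1.5-fold in place of no change, Rb1 passed (adjusted p = 0.013, edgeR's glmTreat) and the other 9 genes did not.

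Rbl1, the gene of p107 (chromosome 3 from 153263692 to 153321353, minus strand), moved in the same direction. Its level was 19.6 and 18.6 CPM in the siScramble and 28.7 and 30.2 CPM in the siTbk1 libraries, again without overlap. The log2 fold change was 0.62 (standard error 0.073, 95% interval 0.46 to 0.78, adjusted p = 4.1e-05 in edgeR's quasi-likelihood test), a 1.54-fold rise. The remaining pocket protein gene, Rbl2 (p130), is not one of the 10 genes but belonged to the pathway lists. It rose less, from 41.0 ± 1.19 to 50.7 ± 0.899 CPM (SD, n = 2 each). On the log2 scale the rise was 0.31 (adjusted p = 0.0013, edgeR's quasi-likelihood test).

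Because Rb1 and Rbl1 rose side by side while Cdk4 stayed level, the 250 bases before the transcription start of these genes are shown. They were read from RefSeq on GRCr8, a newer build than that of the count table, with the start as RefSeq's promoter table sets it. The letters searched, on both strands, were the E2F core (the letters TTCCCGC, the letters TTGGCGC, the letters TTCGCGC or the letters TTGCCGC), the core of the cAMP response element (TGACG) and the E-box bound by MYC (CACGTG), and matches are in capitals. No match overlapped another of a different kind in these windows. The sequences run 5′ to 3′ along the gene, Rb1 from chr15:54911858-54912107 (minus strand), Rbl1 from chr3:166289377-166289626 (minus strand) and Cdk4 from chr7:64771203-64771452 (plus strand).
Rb1: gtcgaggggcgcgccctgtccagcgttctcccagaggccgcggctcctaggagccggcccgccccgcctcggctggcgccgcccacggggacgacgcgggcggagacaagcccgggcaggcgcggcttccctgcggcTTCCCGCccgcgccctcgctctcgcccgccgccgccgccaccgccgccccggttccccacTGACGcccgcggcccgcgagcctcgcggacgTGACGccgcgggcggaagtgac
Rbl1: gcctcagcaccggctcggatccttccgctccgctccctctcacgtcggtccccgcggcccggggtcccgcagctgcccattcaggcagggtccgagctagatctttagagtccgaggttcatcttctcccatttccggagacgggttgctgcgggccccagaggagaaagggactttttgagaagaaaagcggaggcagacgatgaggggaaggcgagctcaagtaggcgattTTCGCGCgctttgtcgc
Cdk4: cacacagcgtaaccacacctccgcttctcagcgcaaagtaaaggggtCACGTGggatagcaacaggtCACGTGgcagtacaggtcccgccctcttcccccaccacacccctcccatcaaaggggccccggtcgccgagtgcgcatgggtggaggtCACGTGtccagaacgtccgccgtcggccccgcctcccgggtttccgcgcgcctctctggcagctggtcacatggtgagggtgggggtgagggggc

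An E2F core was found 113 bases before the start of Rb1 and 17 bases before that of Rbl1, each counted from the first letter of the match. Promoters were matched for 7 of the 10 genes, and none was found for Ccnd1, Ccnd2 and Cdk6. The core was in none of the other 5 (Ccnd3, Cdk4, Cdkn1a, Cdkn1b and Cdkn2c), against 7.59% of 33469 RefSeq windows of that length. The letters TGACG occurred at 2 places in Rb1 and at 1 place each in Ccnd3, Cdkn1a and Cdkn1b, and 18.2% of all windows hold it. Cdk4 held 3 E-boxes, a motif present in 5.59% of all windows. The Rb1 window was 81.2% G or C, higher than 99.2% of all windows, and that of Rbl1 was 62.4%. All 7 matched windows had at least 58.8% G or C, against a median of 51.2% over all windows. The E2F core is itself rich in G and C, and the part of base content in its matches was not tested. A match of letters is a description and does not show that a factor binds there.

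**Figure D2:**
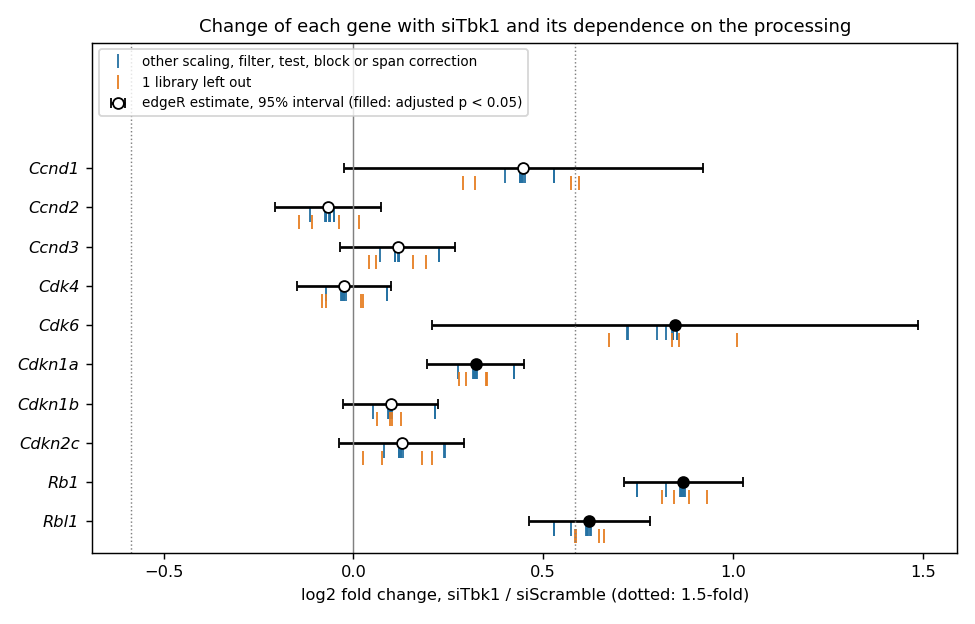
Log2 fold change (siTbk1 over siScramble) of each gene with its 95% interval, filled where the adjusted p-value was under 0.05, with blue ticks for the other scalings, filters, tests and corrections and orange ticks for fits without 1 library. Rb1 and Rbl1 keep clear of 0 in every setting drawn, the interval of Cdk6 is the widest, and the ticks of Cdk4 and Ccnd2 fall on both sides of 0.

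The genes past the 1.5-fold line are also the longest of the group. Cdk6 spans 181 kb, Rb1 126 kb and Rbl1 57.7 kb from start to stop, introns included, and the other 7 genes span 2.56 to 22.3 kb. Over all tested genes, the 4522 that span under 10 kb had a median log2 fold change of −0.099 and the 1757 that span over 100 kb one of 0.12. With the trend of each library along genomic span removed, the log2 fold change was 0.75 for Rb1 (adjusted p = 1.8e-05), 0.53 for Rbl1 (adjusted p = 0.00015) and 0.72 for Cdk6 (adjusted p = 0.055), each from edgeR, so that only Rb1 of the 10 remained past both limits. The same correction raised the short inhibitor and cyclin genes, and Ccnd3 (log2 fold change 0.23, adjusted p = 0.014), Cdkn1b (0.22, adjusted p = 0.012) and Cdkn2c (0.24, adjusted p = 0.019) then passed the test along with Cdkn1a (0.42, adjusted p = 0.00017).

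Ratios of counts inside a library do not depend on the scaling between libraries. Their size mixes level with transcript length, so only their change is read. The Rb1 count was 0.0960 and 0.0945 of the Cdk4 count in the siScramble libraries and 0.169 and 0.186 in the siTbk1 libraries. For Rbl1 the ratio to Cdk4 was 0.0917 and 0.0929 against 0.137 and 0.153. Both ratios were higher in each siTbk1 library than in either control, by 1.86 times for Rb1 and 1.57 times for Rbl1 on average. Cdk4 spans only 2.56 kb, so both ratios still hold the trend along genomic span. With that trend removed, the log2 fold change was 0.087 for Cdk4, 0.75 for Rb1 and 0.53 for Rbl1 in edgeR. The part of the trend in the ratios was not tested. The ratio of Cdkn1a to Cdk4 went from 0.285 and 0.293 to 0.364 and 0.371, also without overlap. Cdkn1b gave a ratio to Cdk4 of 0.343 and 0.368 against 0.366 and 0.410, and here the groups overlapped. The ratio of Cdkn2c to Cdk4 was 0.153 and 0.151 against 0.173 and 0.164, without overlap and 1.11 times as high on average. With 2 samples against 2, an exact permutation test of a ratio cannot give a two-sided p below 0.333.

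**Figure D3:**
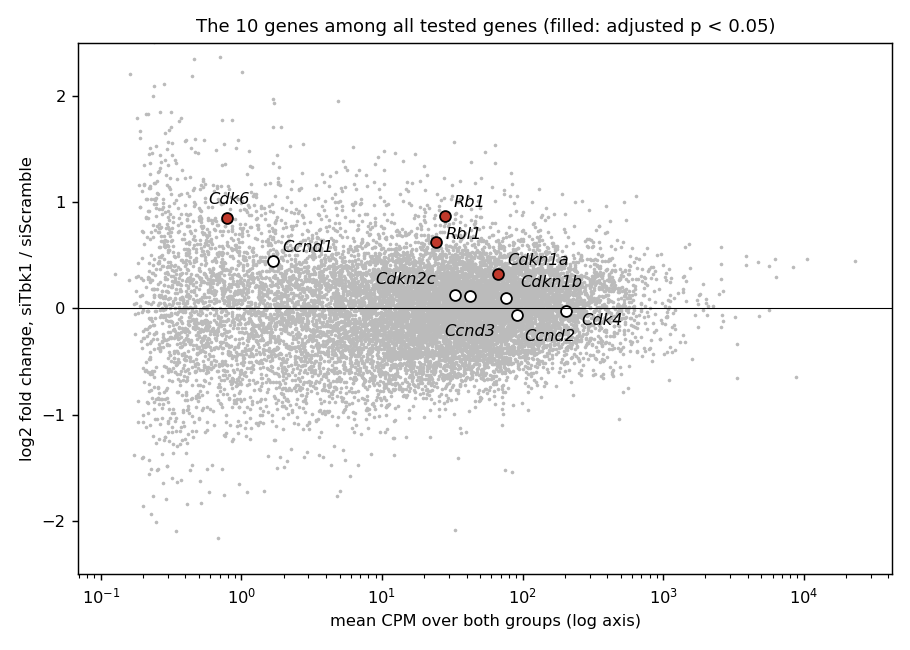
Mean level over both groups (CPM, log axis) against log2 fold change for all tested genes (grey, with 13 genes outside the drawn range) and the 10 genes (circles, filled in red where the adjusted p-value was under 0.05). Rb1 and Rbl1 lie toward the upper edge of the cloud at their level, Cdk6 and Ccnd1 lie to the left where few reads widen the cloud, and the remaining 6 genes lie inside it.

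The rest of the pathway was followed with lists of genes by role. Of 73 tested pathway genes outside the 10, 29 (39.7%) rose and 17 (23.3%) fell, against 24.4% and 24.8% of all genes, and their median log2 fold change was 0.084. Just 2 of the 29 and 1 of the 17 changed by at least 1.5-fold. Cdkn1c, Cdkn2a, Cdkn2b, Cdkn2d, E2f1 and Chek1 were not analysed here, and Kmt2a was below the count filter.

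Downstream of the D cyclins, 3 of 5 genes (60%) of cyclin E, cyclin A and Cdk2 rose and none fell, against 24.4% and 24.8% of all genes. Ccne2, whose product cyclin E2 activates CDK2, went from 48.5 ± 5.90 to 117.8 ± 5.64 CPM (SD, n = 2 each), which is 1.28 on the log2 scale. Ccna2 (log2 fold change 0.40) and Cdk2 itself (0.23) rose too. Ccne1 was at −0.11 and Cdc25a, the phosphatase that activates CDK2, at −0.0072, neither past the test. Of 3 genes of the CDK-activating kinase, 1 (33.3%) rose, Cdk7 (log2 fold change 0.31), and none fell.

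The E2F and DP transcription factors moved both ways, with 4 of 9 (44.4%) higher and 3 (33.3%) lower, against 24.4% and 24.8% of all genes. Tfdp2 (log2 fold change 0.45), E2f6 (0.38), E2f3 (0.28) and E2f2 (0.24) rose. E2f8 fell by 0.35 on the log2 scale, Tfdp1 fell by 0.22 and E2f4 fell by 0.16, the last at an adjusted p = 0.038 in edgeR's quasi-likelihood test. The lower genes of this list numbered 2 with DESeq2 or with the trend along genomic span removed, and 1 without siTbk1 replicate 3. Another list held 7 genes of the DREAM and MuvB complexes, of which DREAM represses cell cycle genes together with pocket proteins. Of these genes, Lin9 (log2 fold change 0.47), Lin54 (0.34) and Rbbp4 (0.22) rose and Lin37 (−0.43) fell. That is 42.9% higher and 14.3% lower, beside the same 24.4% and 24.8% of all genes.

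The genes listed as E2F targets, which do not include those of the other lists, moved both ways. Of 21 tested, 6 (28.6%) rose and 7 (33.3%) fell, against 24.4% and 24.8% of all genes, and their median log2 fold change was 0.0059. The rising genes included Pola1 (log2 fold change 0.37), Tyms (0.34) and Dbf4 (0.32). Among the falling genes were Cdt1 (log2 fold change −0.65) and Mcm2 (−0.36) of origin licensing. With them fell 4 more subunits of the MCM helicase, Mcm5 (−0.22), Mcm3 (−0.20), Mcm6 (−0.14) and Mcm7 (−0.13). Mcm6 (adjusted p = 0.042) and Mcm7 (adjusted p = 0.0498) passed edgeR's quasi-likelihood test by a narrow margin. Mcm4 was at 0.084 and did not pass the test. The count of falling E2F targets was 4 without siScramble replicate 3, 3 without siTbk1 replicate 3 and 4 with the trend along genomic span removed, and the count of rising ones was 3 without siScramble replicate 3. Mki67, which encodes the proliferation antigen Ki-67, rose from 535.1 and 517.7 CPM to 688.3 and 734.8 CPM, which is 0.43 on the log2 scale (adjusted p = 5.9e-05, edgeR's quasi-likelihood test), and Top2a and Ccnb1 rose as well. Cdk1, higher by 0.14 on the log2 scale, passed edgeR's quasi-likelihood test by a narrow margin (adjusted p = 0.049). With DESeq2, RLE scaling, library size alone or the replicate block, 3 rather than 4 of these proliferation markers rose. The number was also 3 with no count filter or with at least 10 counts required in every sample, and 0 with glmTreat.

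Among 10 genes of cyclin and inhibitor turnover, 5 (50%) rose and 2 (20%) fell, against 24.4% and 24.8% of all genes. Of the genes linked to the degradation of cyclin D1, Fbxo4 (log2 fold change 0.62) and Gsk3b (0.42) rose while Fbxo31 (−0.50) and Fbxw8 (−0.38) fell. Ambra1 of the same list was at −0.098 and did not pass the test (adjusted p = 0.16, edgeR's quasi-likelihood test). Fbxw7 (log2 fold change 0.44), which targets cyclin E, and the ubiquitin ligase scaffold Cul1 (0.44) rose. Skp2, which marks p27 for degradation, was at 0.074 and did not pass the test. Of 13 upstream regulators, 2 (15.4%) rose and 4 (30.8%) fell, against 24.4% and 24.8% of all genes. The insulin receptor gene Insr (log2 fold change 0.33) and the prolactin receptor gene Prlr (0.31) rose. Stat5b, which acts below the prolactin receptor, fell (log2 fold change −0.56), as did Myc (−0.37), Men1 (−0.30), whose product menin maintains Cdkn1b and Cdkn2c expression in endocrine cells, and Ctnnb1 (−0.15).

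**Figure D4:**
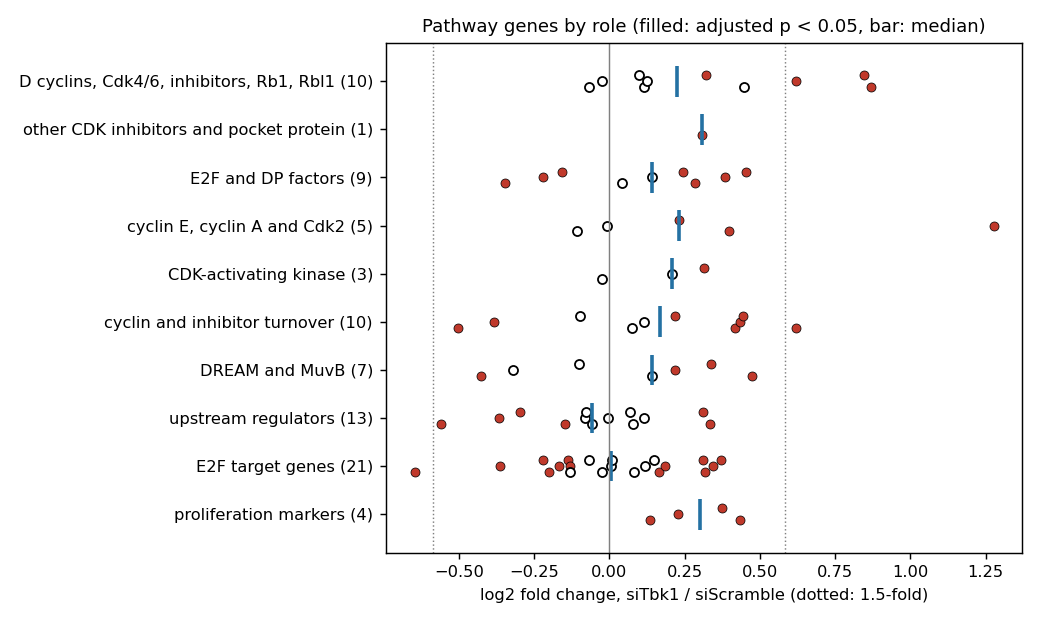
Log2 fold change (siTbk1 over siScramble) of each tested gene by list, with the number tested in parentheses, filled points for adjusted p-values under 0.05, blue bars for list medians and dotted lines at 1.5-fold. Points of the genes on the E2F target list lie on both sides of 0 (median 0.0059), and Ccne2, placed on the cyclin E list, stands apart at 1.28.

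The profile of Rb1 over the 4 libraries was most like those of Ptpn4, Oxct1 and Cdc14a, with Euclidean distances of 0.0220, 0.0232 and 0.0234 between log2 CPM values centred on each gene's mean. Their log2 fold changes were 0.86, 0.88 and 0.85. With 4 libraries many genes have such profiles, and the likeness is a description.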

How the data were processed

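Stranded libraries of polyadenylated RNA from 2 siScramble- and 2 siTbk1-treated samples of INS-1 832/13 cells were analysed, grouped by the transfection given in the labels. The deposited values are estimated counts for each gene, which the authors had not scaled between samples. The submitters' processing notes name STAR 2.6.1d, Partek and the build rn6, and the counting settings are not given in the sources used here. Counts were rounded, and filterByExpr in edgeR 4.0.16 (minimum count 10) left 13953 of 15172 genes and all 10 genes described. Libraries were scaled with TMM factors, and the quasi-likelihood test was fitted over all genes with treatment as the only factor and Benjamini-Hochberg adjustment. Intervals are the estimate plus or minus the standard error times the t quantile of the fit. Poisson intervals cover counting error only. Levels were not compared between genes, since no transcript lengths were used.

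The 10 genes, the pathway lists and the rule for named genes were chosen with earlier results of these data known. The rule took the 10 genes, Tbk1, Mki67, up to 3 genes per pathway list and direction past the test, and the 3 profiles nearest to the member with the largest change. Ins1 and Gcg of the cell type markers, E2f2, Gsk3b, Ctnnb1, Mcm3, Mcm6, Mcm7 and Cdk1 were named after their values were seen. So were the genes given as not past the test (Ccne1, Cdc25a, Mcm4, Skp2 and Ambra1). The alternatives are a replicate block, DESeq2 1.42.0, limma-voom (limma 3.58.1), 3 other scalings, 2 other filters, glmTreat, removal of the loess trend (smoothing span 0.5) of a library against the log10 of genomic span, and leaving out each sample. The tests were checked on simulated counts in which 200 genes were changed. edgeR recovered 182 of them (91%) with 6 false calls, and DESeq2 recovered 161 (80.5%) with 3. The simulated counts shared a common dispersion and had no trend along genomic span. Far fewer genes were changed in them than passed the test here, so the check does not cover these features of the data. R 4.3.3, Python 3.11.15 and matplotlib 3.10.9 were used. Some planned pathway results are not reported here.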

Additional observations from a re-analysis of the deposited data

How the results depend on the processing

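Rb1, Rbl1 and Cdkn1a kept their direction and an adjusted p-value under 0.05 in all 10 alternatives other than glmTreat and in all 4 fits without 1 library, and Cdk6 passed in 7 of the 10 and in 1 of the 4. In a fit without 1 library, the lone sample of its group is assumed to vary like the other group. The genes higher at an adjusted p-value under 0.05 numbered 1 when tested against 1.5-fold with glmTreat and 7 with the span correction and the replicate block together. Of all 13953 genes, 163 were higher with glmTreat and 3026 with the span correction and block. The genes also past 1.5-fold numbered 1 with glmTreat, 1 with the span correction and 1 with the span correction and block. In the same order, these settings called 163, 660 and 682 of all genes higher and past 1.5-fold. Without a library, the log2 fold change of Ccnd2 ranged from −0.144 to 0.0142 and that of Cdk4 from −0.0829 to 0.0238. Cdk4 was at 0.087 with the span correction and 0.088 with the block added. The cause of these changes of sign was not tested. No gene of the 10 was lower at an adjusted p-value under 0.05 in any setting.

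The groups share replicate numbers, but nothing in the labels ties the numbers to a shared culture or day. Across genes, the deviations of samples sharing a number had almost no linear relation (Pearson's r = 0.0041). Ranked by size, they were weakly opposed (Spearman's rho = −0.195). The cause of this difference was not tested. With the replicate block, 4 of the 10 genes were higher and 3 were also past 1.5-fold, as without it, while 4 rather than 7 E2F targets, 2 rather than 3 E2F and DP genes and 3 rather than 4 upstream regulators were lower, and 3 rather than 4 proliferation markers were higher. The block called 3094 of all genes higher, and 699 of them were past 1.5-fold. With the span correction added to the block, 2 upstream regulators were lower. Over all genes, library size alone called 2812 higher and 3986 lower, so that 41.4% of calls were higher, against 49.6% with TMM factors. With glmTreat, 163 genes were higher and 101 lower. A planned scaling to Gapdh was not run, and Gapdh is not analysed here. Depth limits Ccnd1 and Cdk6, whose intervals are the widest of the 10.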

Other observations

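The balance between the D cyclins can be read without any scaling. The count of Ccnd3 was 0.437 and 0.435 of that of Ccnd2 in the siScramble libraries and 0.498 and 0.490 in the siTbk1 libraries. That is a change of 1.13 times, with SDs of 0.0018 and 0.0062 (n = 2 each). An SD of 2 values is a rough measure, and the counting error of the ratio was not computed. Neither gene passed the test alone. The ratio of Ccnd1 to Ccnd2 was 0.0147 and 0.0157 against 0.0190 and 0.0247. Rb1 also rose relative to Rbl1, with count ratios of 1.05 and 1.02 in the siScramble and 1.24 and 1.21 in the siTbk1 libraries. These ratios still hold any trend along genomic span. They were examined after the levels had been seen, and 2 samples against 2 cannot give an exact permutation p below 0.333.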
